A study of Mus musculus with 8 samples.

Results

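Endothelial genes were followed through stomach tissue of E13.5 mouse embryos, wild type or with activated YAP. The set holds 35 genes that mark the endothelium, the cell layer that lines blood and lymphatic vessels. They were found by gene symbol among the 26747 loci of the deposited table, where Adgrf5 and Adgrl4 stand under their older symbols Gpr116 and Eltd1. All 35 have a locus of their own. Of these genes, 30 are called pan-endothelial here, which means only that they are in neither of the groups named next. Another 3 (Apln, Dll4, Esm1) are enriched in tip cells, the leading cells of sprouting vessels, and 2 (Prox1, Flt4) are known for the lymphatic endothelium.

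The study sequenced RNA of whole embryonic stomach from 4 wild type and 4 Nkx3.2Cre;R26-YAP5SA samples, the latter called YAP5SA here. YAP is the transcriptional coactivator held in check by the Hippo kinase pathway, and YAP5SA lacks the phosphorylation sites through which that pathway inactivates it. The construct sits at the Rosa26 locus and is switched on by a Cre recombinase under control of Nkx3.2, a gene of the foregut mesenchyme, so that the mesenchyme, not the endothelium, is the layer the design targets. Whether endothelial cells recombined as well was not measured. The wild type group is not labelled as carrying Cre, so an effect of Cre cannot be told apart from that of YAP5SA. The labels do not say whether a sample is 1 embryo or a pool, so p-values measure only the spread between these samples.

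Vascular endothelial growth factors (VEGFs) act on endothelial cells through receptor tyrosine kinases. VEGF-A signals mainly through VEGFR2, the product of Kdr. VEGFR1, from Flt1, binds VEGF-A tightly and limits its availability, and VEGFR3, from Flt4, receives VEGF-C and VEGF-D in lymphatic vessels and in sprouting blood vessels. The angiopoietins act through TIE2, from Tek, with TIE1 as its partner. ETS factors such as ERG and FLI1, SOX factors of the F group and the basic helix-loop-helix factors TAL1 and LYL1 drive endothelial and blood-forming programmes.

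Libraries held 6328344 to 6919353 fragments in wild type and 7293556 to 8513116 in YAP5SA. Of the 14574 loci with enough fragments to test, 1321 were higher and 1436 lower in YAP5SA at an adjusted p under 0.05, with a median log2 fold change of −0.01. Yap1 had a log2 fold change of −0.05 ± 0.05 (adjusted p = 0.55). The YAP target genes Ankrd1 and Cyr61 rose in all 4 YAP5SA libraries, Ankrd1 from at most 0.947 to at least 21.9 CPM (counts scaled to a common library size) and Cyr61 from at most 41.5 to at least 82.2 CPM. The 2 pairs of libraries of 1 genotype that differed most both held YAP5SA replicate 1.

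All 35 endothelial genes passed the filter on low counts, the lowest single value being 60 fragments. Of them, Kdr, Lyl1, Ecscr and Gpr116 rose and Flt4 fell, while 30 did not pass the test. Over all tested loci 9.06% rose and 9.85% fell, so 4 rises and 1 fall in 35 genes are near or below those shares. The count of rises depended on single wild type libraries: without wild type replicate 1 it was 8, while 1184 of all loci rose, and without wild type replicate 2 it was 7, while 1063 rose. The log2 fold changes of the 35 genes had a median of 0.11, with 21 positive and 14 negative. At an unadjusted p under 0.05, 11 of the 35 were higher and 1 lower, against 15.2% and 16.1% of all tested loci. By this looser threshold the rises lay above the share of all loci and the falls below it. This difference carries no test. Many of the genes peaked in the same libraries, and the list was chosen with earlier results of these data known. All 4 YAP5SA libraries lay above all 4 wild type libraries in 5 genes (Kdr, Lyl1, Ecscr, Gpr116 and Mmrn2), against 10.9% of all tested loci, and below them in Flt4 alone, against 12.4%. The plot of fold changes by role shows most genes close to 0.

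**Figure D1:**
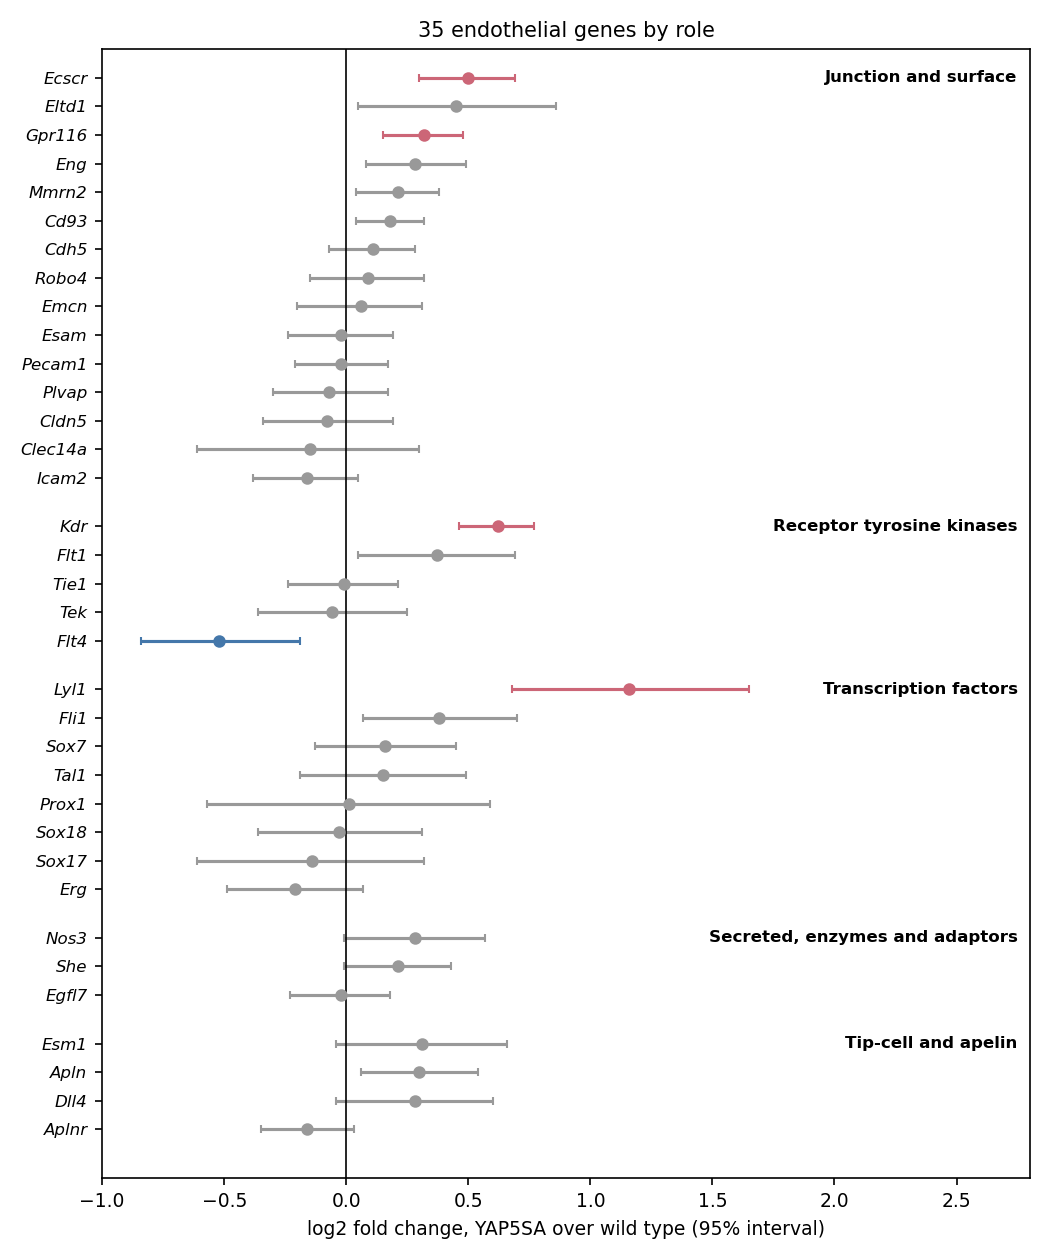
Log2 fold change of YAP5SA over wild type for each of the 35 genes, grouped by role, from edgeR with 4 libraries per genotype; bars are 95% confidence intervals, red and blue points passed the adjusted p threshold of 0.05 as higher and lower, and grey points did not. Lyl1 at 1.16 and Kdr at 0.62 lie farthest to the right and Flt4 at −0.52 farthest to the left.

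The summed level of the endothelial genes overlapped between the genotypes. The 30 pan-endothelial genes summed to 1830, 1830, 1530 and 1534 CPM in wild type replicates 1 to 4 and to 1768, 1937, 1985 and 1801 CPM in YAP5SA. The groups overlap, since wild type replicates 1 and 2 lie above YAP5SA replicates 1 and 4, and the ratio of the means was 1.11. The 3 tip-cell genes summed to 92.5, 77.2, 69.7 and 73.6 CPM in wild type and to 89.4, 108, 98.0 and 88.4 CPM in YAP5SA. Here wild type replicate 1 lies among the YAP5SA values. The 2 lymphatic genes summed to 94.1, 103, 93.7 and 65.8 CPM in wild type and to 78.6, 65.1, 72.9 and 64.0 CPM in YAP5SA, where wild type replicate 4 lies among the YAP5SA values. Median log2 fold changes were 0.10 for the pan-endothelial, 0.30 for the tip-cell and −0.25 for the lymphatic genes. Of the pan-endothelial genes, 4 of 30 were called higher and 0 lower, against 9.06% and 9.85% of all tested loci. Of the lymphatic genes, 0 of 2 were called higher and 1 lower, and 0 of 3 tip-cell genes passed the test. By edgeR, 1 of the 3 tip-cell genes was higher at an unadjusted p under 0.05, against 15.2% of all tested loci. At an adjusted p under 0.05, edgeR and DESeq2 both called 0. In bulk tissue, fewer cells of a type and less RNA per cell cannot be told apart.

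**Figure D2:**
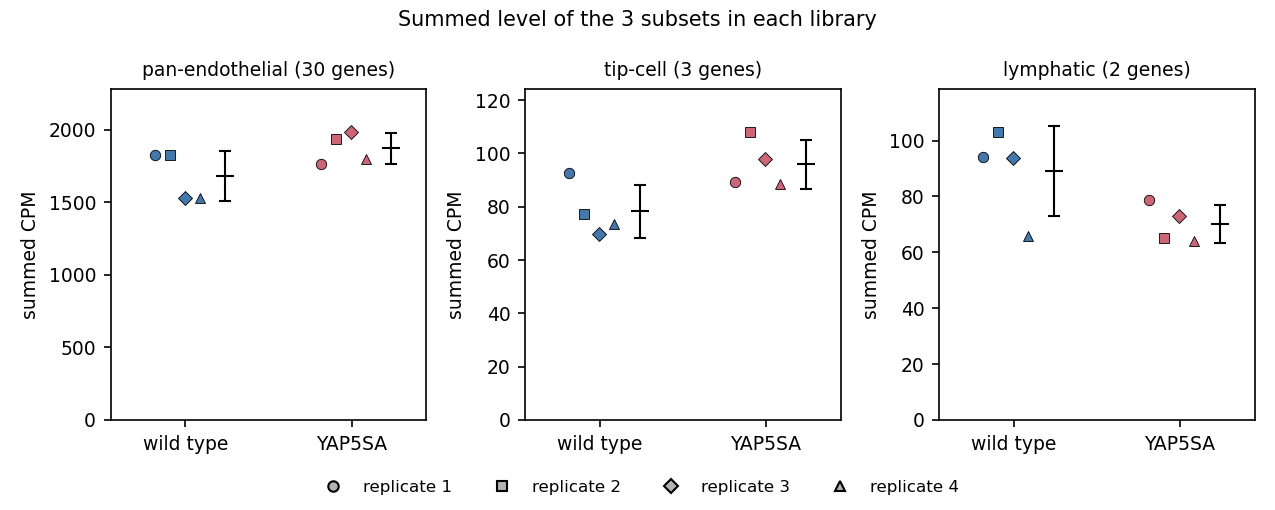
Summed CPM of the pan-endothelial, tip-cell and lymphatic genes in each of the 8 libraries (points, shaped by replicate number) with the mean and SD of 4 libraries beside them. The groups overlap in all 3 panels.

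Within a genotype, many of the genes peaked in the same libraries. Of the 35 genes, 19 had their highest wild type level in replicate 1 and 15 in replicate 2, and 19 had their lowest in replicate 3 and 15 in replicate 4. In YAP5SA, replicate 1 held the lowest level of 19 genes and replicate 3 the highest of 16. The coefficient of variation had a median of 14.0% over the wild type libraries (3.46% to 45.1%) and of 10.2% over the YAP5SA libraries (4.94% to 24.3%). Ecscr varied least and Prox1 most in wild type.

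Per transcript length and depth (FPKM), the highest wild type levels were those of Egfl7 at 48.2 ± 6.10 FPKM (SD, n = 4), Pecam1 at 43.4 ± 3.91, Cldn5 at 41.0 ± 6.92 and Cdh5 at 39.6 ± 3.04. The lowest were Eltd1 at 2.90 ± 0.415 FPKM and Tal1 at 4.04 ± 0.626. In the wild type order of the 35 levels only Cd93 and the gene below it, Erg, had libraries that did not overlap; all other neighbours overlapped. Between wild type and YAP5SA, Kdr moved from rank 12 to rank 6, Lyl1 from 33 to 25 and Flt4 from 21 to 29.

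Promoter sequence is shown for 4 genes, the 3 that rose and have an entry, and Flt1, whose receptor shares the ligand VEGF-A with the Kdr product. RefSeq windows on GRCm38.p6 were found for 21 of the 35 genes. Each line gives the bases before the RefSeq start site, 5′ to 3′ on the gene's strand, without bases that lie in a GENCODE exon. Capitals mark AGGAAG or CGGAAG on either strand, which are forms of the ETS factor motif around its core GGAA. GGAA with other flanking bases is not marked and also stands in the Kdr stretch. The Kdr stretch is chr5:75978459.0-75978705.0 (minus strand), that of Flt1 chr5:147726012.0-147726261.0 (minus strand), that of Gpr116 chr17:43360181.0-43360430.0 (plus strand) and that of Lyl1 chr8:84701207.0-84701456.0 (plus strand).
Kdr: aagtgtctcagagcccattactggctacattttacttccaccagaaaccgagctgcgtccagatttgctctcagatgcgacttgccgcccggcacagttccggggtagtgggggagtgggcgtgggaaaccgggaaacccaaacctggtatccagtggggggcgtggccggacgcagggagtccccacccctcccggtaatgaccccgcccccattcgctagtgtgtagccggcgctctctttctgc
Flt1: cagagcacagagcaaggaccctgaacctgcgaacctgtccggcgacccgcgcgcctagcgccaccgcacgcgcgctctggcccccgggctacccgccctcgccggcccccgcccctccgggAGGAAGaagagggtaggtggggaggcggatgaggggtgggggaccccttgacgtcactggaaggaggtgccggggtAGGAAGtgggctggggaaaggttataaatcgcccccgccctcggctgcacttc
Gpr116: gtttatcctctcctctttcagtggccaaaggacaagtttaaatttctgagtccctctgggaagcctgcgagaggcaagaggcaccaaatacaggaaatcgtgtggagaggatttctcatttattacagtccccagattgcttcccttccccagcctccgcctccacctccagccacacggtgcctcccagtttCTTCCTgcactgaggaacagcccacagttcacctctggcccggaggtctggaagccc
Lyl1: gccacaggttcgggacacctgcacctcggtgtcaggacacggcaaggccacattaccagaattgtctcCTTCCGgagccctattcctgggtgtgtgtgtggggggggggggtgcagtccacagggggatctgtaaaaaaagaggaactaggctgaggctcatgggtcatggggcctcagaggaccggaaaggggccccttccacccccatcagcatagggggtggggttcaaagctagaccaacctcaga
The Flt1 stretch holds AGGAAG at 2 places, 48 to 53 and 124 to 129 bases before the start. Gpr116 holds AGGAAG on the other strand at 52 to 57 bases and Lyl1 CGGAAG on the other strand at 177 to 182 bases, while these letters are not in the Kdr window. Over the 250 bases before the start, 11 of the 21 windows (52.4%) held AGGAAG or CGGAAG, against 39.0% of 27025 genes with a window. GGAATG, the core of the motif bound by the TEAD partners of YAP, was searched on both strands and stood in 2 of the 21 (9.5%), Erg and Clec14a, against 12.6% of all. The 21 windows had a median GC content of 60.0%, against 52.0% over all genes.

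Among the receptor tyrosine kinases, the 3 VEGF receptors differed in direction while Tie1 and Tek had fold changes near 0. Kdr (VEGFR2) lies on chromosome 5, at 75932811 to 75979109 in mm10 on the minus strand, as the deposited table gives it. It stood at 132, 154, 139 and 128 CPM in wild type replicates 1 to 4 and at 222, 217, 221 and 190 CPM in YAP5SA. Every YAP5SA library was above every wild type library. The log2 fold change was 0.62 ± 0.07 (standard error, 95% interval 0.46 to 0.77, edgeR adjusted p = 3.2e-04).

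Flt4 (VEGFR3), on chromosome 11 at 49609679 to 49652739 on the plus strand, went the other way. It stood at 53.2, 78.4, 74.4 and 50.8 CPM in wild type and at 47.4, 42.0, 50.5 and 39.8 CPM in YAP5SA. The groups do not overlap, but the gap is small: the highest YAP5SA library, at 50.5 CPM, lies just below the lowest wild type library, at 50.8 CPM. Flt4 fell by 0.52 ± 0.15 on the log2 scale (95% interval −0.84 to −0.19, edgeR adjusted p = 0.032). The call was lost in 7 of 18 alternative analyses: without wild type replicate 2 (log2 fold change −0.39, adjusted p = 0.1), wild type replicate 3 (−0.43, 0.091) or YAP5SA replicate 1 (−0.53, 0.051), 2 (−0.47, 0.092) or 4 (−0.45, 0.097), and in both FPKM fits (0.069 and 0.073).

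Flt1 (VEGFR1) stood at 43.2, 54.7, 31.5 and 39.2 CPM in wild type and at 54.1, 50.6, 61.9 and 51.0 CPM in YAP5SA. Wild type replicate 2 lies among the YAP5SA values, and the log2 fold change of 0.37 ± 0.14 (95% interval 0.05 to 0.69) did not pass the test (adjusted p = 0.11). Without wild type replicate 2 it was 0.53 (adjusted p = 0.019), the only call for Flt1 in 18 alternatives (log2 fold changes 0.26 to 0.53). Tie1 averaged 91.0 ± 12.3 CPM over wild type and 90.2 ± 8.77 CPM over YAP5SA libraries (SD, n = 4), a log2 fold change of −0.01 ± 0.10. Tek, the angiopoietin receptor gene, stood at 49.3 ± 10.6 and 47.4 ± 4.24 CPM, a log2 fold change of −0.06 ± 0.14. Their 95% intervals ran from −0.24 to 0.21 and from −0.36 to 0.25.

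Set against each other per length, Kdr made up 54.3% ± 2.04 of the summed FPKM of the 3 VEGF receptors in wild type and 64.5% ± 1.07 in YAP5SA (SD, n = 4). Flt4 made up 24.3% ± 3.63 and 13.3% ± 0.669, and Flt1 21.4% ± 3.78 and 22.2% ± 0.553. The ratio of Kdr to Flt4 FPKM was 2.55, 2.01, 1.91 and 2.61 in wild type and 4.74, 5.26, 4.50 and 4.93 in YAP5SA. No YAP5SA ratio comes near the wild type range, as the plot of the receptors shows, whereas the share of Flt1 overlaps. These ratios restate the 2 fold changes above and carry no test of their own.

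**Figure D3:**
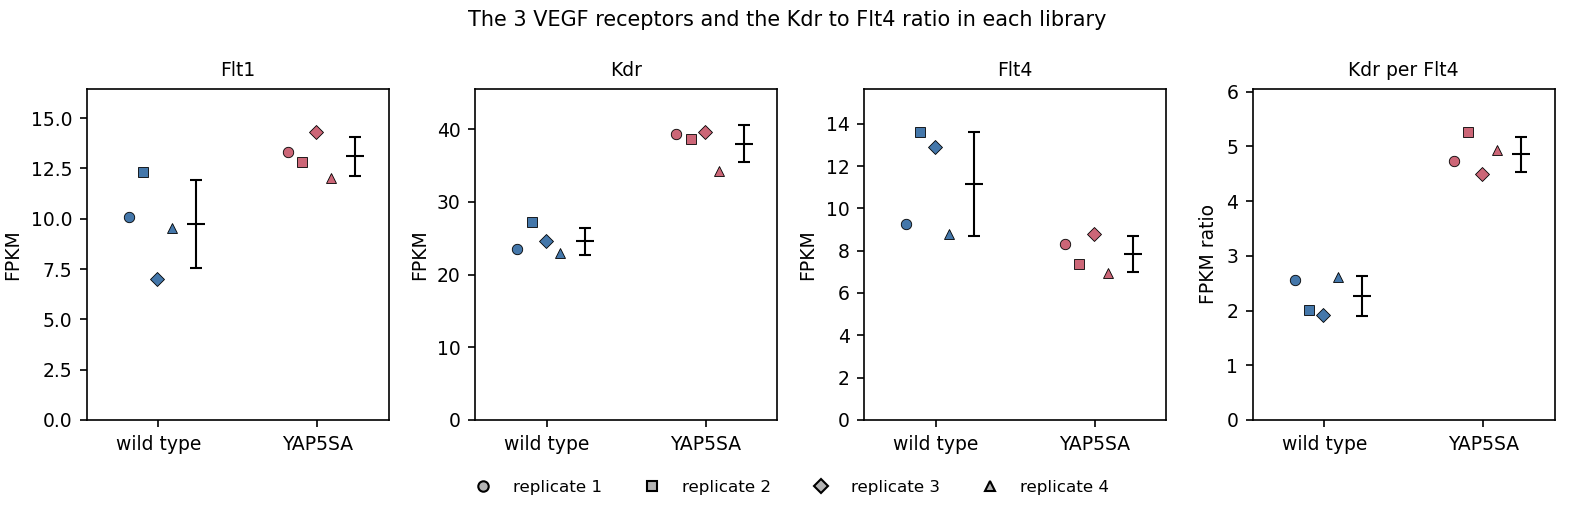
FPKM of Flt1, Kdr and Flt4 and the ratio of Kdr to Flt4 FPKM in each of the 8 libraries (points, shaped by replicate number), with the mean and SD of 4 libraries beside them. The ratio lies between 1.91 and 2.61 in wild type and between 4.50 and 5.26 in YAP5SA.

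Relative to other endothelial RNA the same orders held. Kdr gave 14.5 ± 1.29 fragments per 100 fragments of the 15 junction and surface genes in wild type and 20.6 ± 1.88 in YAP5SA (SD, n = 4). Flt4 gave 6.74 ± 1.53 and 4.36 ± 0.520, and both genes' groups did not overlap. Per Cdh5 FPKM, however, the Flt4 groups overlapped (0.281 ± 0.0605 and 0.185 ± 0.0302).

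Of the 15 junction and surface genes, 2 rose and 0 fell, against 9.06% and 9.85% of all tested loci. Their median log2 fold change was 0.09. Ecscr encodes a surface protein of endothelial cells that modulates VEGF signalling and migration. It stood at 25.6, 25.4, 25.0 and 23.7 CPM in wild type and at 35.6, 39.1, 34.8 and 31.4 CPM in YAP5SA, with no overlap. It rose by 0.50 ± 0.09 on the log2 scale (adjusted p = 0.0031). Its exons share 62 bases with 1700066B19Rik on the opposite strand, and without known strand use the fragments of that stretch cannot be told apart.

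Gpr116 (Adgrf5) encodes an adhesion G protein-coupled receptor of vessels and lung epithelium. It stood at 72.0, 76.9, 62.8 and 72.2 CPM in wild type and at 82.2, 85.4, 97.5 and 88.4 CPM in YAP5SA, again with no overlap. It rose by 0.32 ± 0.07 (adjusted p = 0.014). In the 2 fits to FPKM the call was lost, at adjusted p = 0.061 and 0.067.

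**Figure D4:**
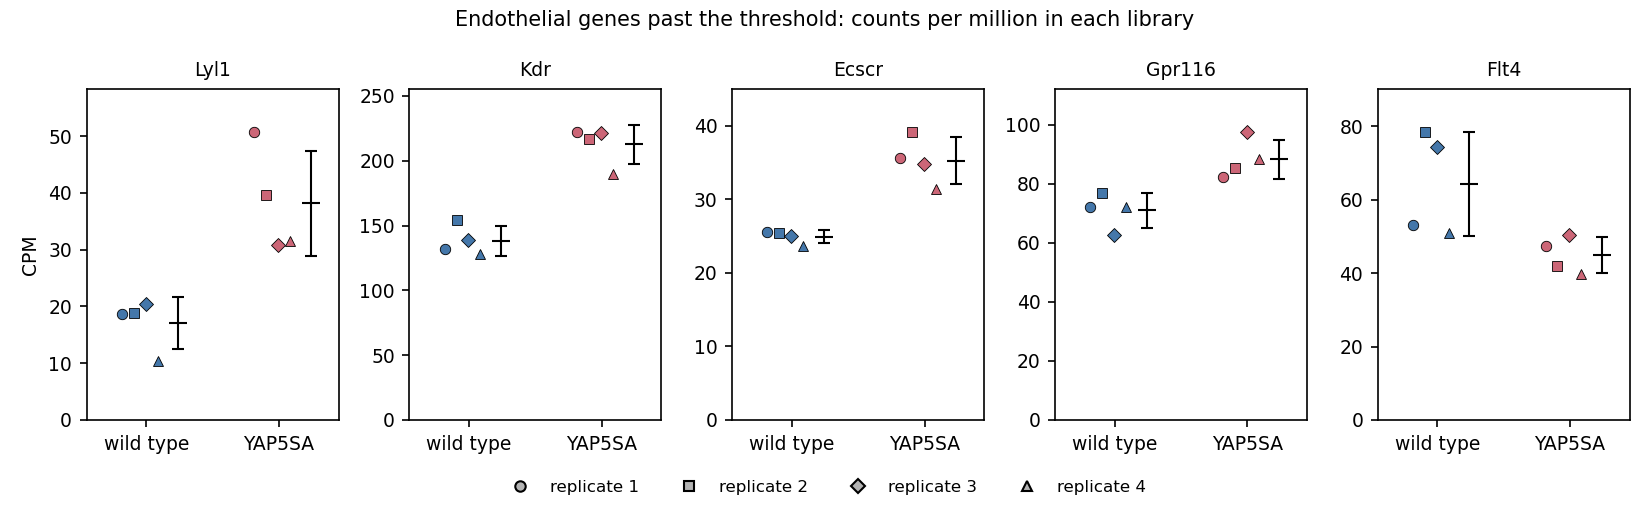
CPM of the 5 genes that passed the test in each of the 8 libraries (points, shaped by replicate number), with the mean and SD of 4 libraries beside them. Lyl1, Kdr, Ecscr and Gpr116 lie higher in every YAP5SA library; Flt4 lies lower, with 50.5 CPM in YAP5SA replicate 3 next to 50.8 CPM in wild type replicate 4.

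Several surface genes had positive fold changes without passing the test. Eng, the TGF-beta coreceptor endoglin, averaged 97.7 ± 12.5 CPM in wild type libraries and 119 ± 10.2 in YAP5SA (log2 fold change 0.28 ± 0.09, adjusted p = 0.056). Eng was called in 6 of 18 alternatives, among them that with the replicate number as a block (adjusted p = 0.048). Cd93, a receptor for Mmrn2, had 0.18 ± 0.06 (adjusted p = 0.068). Its only call in 18 alternatives came without wild type replicate 2 (0.25, adjusted p = 0.018). Mmrn2, a matrix glycoprotein laid down by endothelium, had 0.21 ± 0.08 (adjusted p = 0.085); its libraries stood at 37.3 to 42.3 CPM and 43.7 to 51.6 CPM without overlap. Eltd1 (Adgrl4), another adhesion receptor of angiogenic vessels and the lowest of the 35 per length, had 0.45 ± 0.18 (adjusted p = 0.12).

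The genes that define the endothelial junction had fold changes near 0. Pecam1, which encodes the adhesion molecule CD31, averaged 137 ± 11.5 CPM in wild type libraries and 135 ± 14.5 in YAP5SA (−0.02 ± 0.08, 95% interval −0.21 to 0.17). Cdh5, for VE-cadherin, stood at 151 ± 11.5 and 163 ± 16.1 CPM (0.11 ± 0.08, interval −0.07 to 0.28). Cldn5, the tight junction claudin, had −0.08 ± 0.12 and Esam, another junction molecule, −0.02 ± 0.10. Among the other surface genes, the guidance receptor gene Robo4 had 0.09 ± 0.11, Emcn (endomucin) 0.06 ± 0.11, Plvap (the fenestral diaphragm protein) −0.07 ± 0.11, Clec14a −0.15 ± 0.21 and Icam2 −0.16 ± 0.10. None of these 9 genes was called in any of 18 alternative analyses.

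Of the 8 transcription factor genes, 1 (Lyl1) rose and 0 fell, against 9.06% and 9.85% of all tested loci. LYL1 is a relative of TAL1 that acts in endothelium and in blood-forming cells. The gene is annotated on chromosome 8 at 84701457 to 84704715 on the plus strand in GENCODE, inside Nfix on the other strand; the deposited table gives both 1 shared interval that ends at 84800340. Lyl1 stood at 18.6, 18.8, 20.4 and 10.3 CPM in wild type and at 50.7, 39.7, 30.8 and 31.5 CPM in YAP5SA. All YAP5SA libraries were higher, with replicate 1 the highest, and the log2 fold change was 1.16 ± 0.22 (adjusted p = 0.0043). Only 4 exonic bases are shared with Nfix, whose own log2 fold change was −0.22 ± 0.11 (adjusted p = 0.21).

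Lyl1 moved together with markers of macrophages and leukocytes. Of the 12 such markers tested, 10 rose and 0 fell, against 9.06% and 9.85% of all tested loci. Among those that rose were Cx3cr1, by 0.94 ± 0.10, and Mrc1, by 0.98 ± 0.12. The 12 markers summed to 476, 490, 499 and 372 CPM in wild type and to 976, 826, 760 and 673 CPM in YAP5SA. In both sets the lowest library was wild type replicate 4 and the highest YAP5SA replicate 1. Per 100 CPM of these markers Lyl1 averaged 3.65 ± 0.603 CPM over wild type and 4.68 ± 0.474 over YAP5SA libraries, and the groups overlap. The part of blood cells in the Lyl1 result was not tested. Its relative Tal1, also a gene of endothelial and blood-forming cells, stood at 16.4 ± 2.53 and 18.2 ± 2.58 CPM (0.15 ± 0.15, adjusted p = 0.56), and 9 erythroid markers summed to between 254 and 288 CPM in wild type, above the 196 to 244 CPM of YAP5SA.

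**Figure D5:**
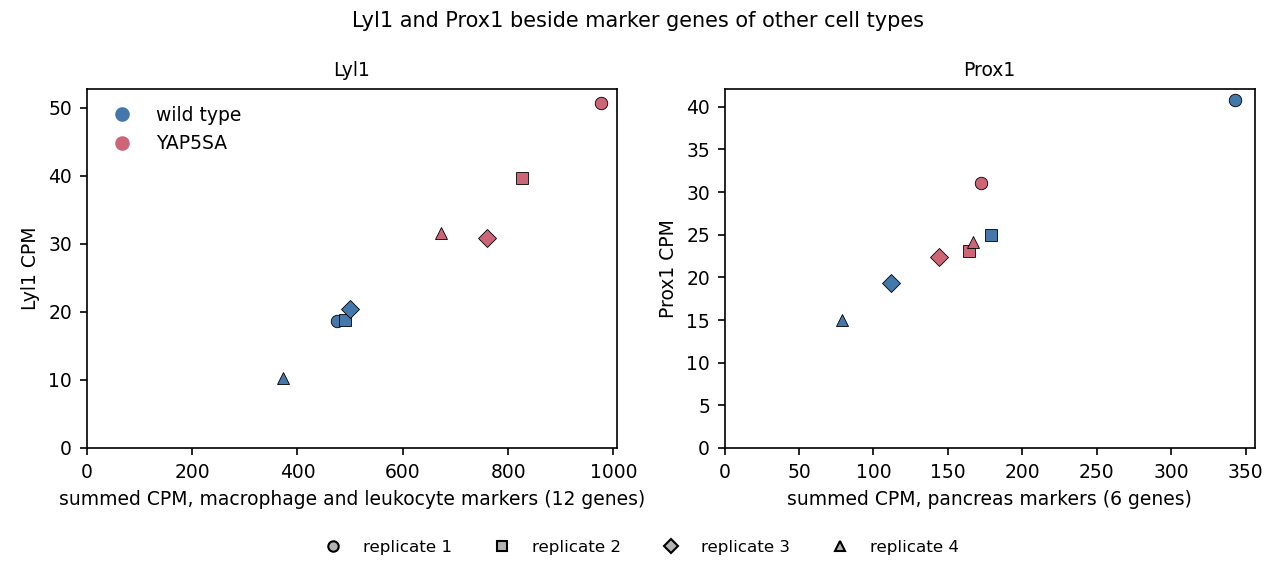
CPM of Lyl1 against the summed CPM of 12 macrophage and leukocyte markers (left) and of Prox1 against that of 6 pancreas markers (right), 1 point per library, blue for wild type and red for YAP5SA. Lyl1 is highest, at 50.7 CPM, where the macrophage sum is highest, at 976 CPM; Prox1 is highest, at 40.8 CPM, where the pancreas sum is highest, at 343 CPM.

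The ETS factor genes did not pass the test. Fli1 stood at 24.5, 36.8, 22.6 and 25.1 CPM in wild type and at 34.9, 36.2, 37.8 and 33.5 CPM in YAP5SA. Wild type replicate 2 alone lies within the YAP5SA range. The log2 fold change was 0.38 ± 0.14 (adjusted p = 0.086), and 0.58 (adjusted p = 0.0045) without that library. This was the only call for Fli1 in 18 alternatives, with log2 fold changes from 0.17 to 0.58 and adjusted p up to 0.5. Erg stood at 29.7 ± 3.42 and 25.7 ± 3.73 CPM (−0.21 ± 0.13, adjusted p = 0.31). The 3 SOX genes of arterial and lymphatic development, Sox7, Sox17 and Sox18, had 0.16 ± 0.13, −0.14 ± 0.21 and −0.03 ± 0.15.

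Prox1, the master regulator of lymphatic identity, stood at 40.8, 25.0, 19.3 and 15 CPM in wild type and at 31.1, 23.1, 22.4 and 24.1 CPM in YAP5SA. The wild type libraries span the whole YAP5SA range, and the log2 fold change was 0.01 ± 0.26 (95% interval −0.57 to 0.59). Prox1 is also expressed in the pancreas and liver, which lie next to the stomach. The 6 pancreas markers (Pdx1, Ptf1a, Cpa1, Ins2, Gcg and Neurog3) summed to 343, 179, 112 and 79.0 CPM in wild type and to 172, 164, 144 and 167 CPM in YAP5SA. They stand in the same order as Prox1 in the wild type libraries, and their part in the Prox1 values was not tested.

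The other lymphatic genes, from a list of 13 of which 11 could be tested, did not move one way. Of the 11, 5 rose and 1 fell, against 9.06% and 9.85% of all tested loci, and the median log2 fold change was 0.30. The forkhead factor gene Foxc2 rose by 1.72 ± 0.31 from a low level, 2.83 ± 1.12 CPM in wild type (10 to 25 fragments). Lyve1, the hyaluronan receptor gene of lymphatics and of macrophages, rose by 1.01 ± 0.17, and Pdpn (podoplanin) by 0.92 ± 0.17. Nr2f2 and Gja1, both also expressed in mesenchyme, rose by 0.40 ± 0.08 and 0.30 ± 0.04, and Tbx1 fell by 1.78 ± 0.31. How much cells outside lymphatic vessels gave to the values of this list was not tested. Mmrn1, a secreted protein gene of lymphatic endothelium, had −0.48 ± 0.16 (adjusted p = 0.058), close to the value of Flt4.

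The 3 tip-cell genes each had a log2 fold change near 0.3, and none passed the test. Apln, the peptide ligand apelin made by sprouting tips, stood at 45.3, 40.7, 38.4 and 35.5 CPM in wild type and at 42.0, 57.2, 51.9 and 46.0 CPM in YAP5SA. Only wild type replicate 1 and YAP5SA replicate 1 overlap (0.30 ± 0.11, adjusted p = 0.083), and without either of them the adjusted p was 0.048 or 0.031. These were the only 2 calls for Apln in 18 alternatives. Per 100 fragments of junction and surface genes, Apln gave 4.18 ± 0.193 in wild type and 4.75 ± 0.383 in YAP5SA, without overlap. The gap was small, from 4.36 in wild type replicate 1 to 4.41 in YAP5SA replicate 1. By the same measure the groups of Dll4 and of Esm1 overlapped. Dll4, the Notch ligand of tip cells and arteries, stood at 27.2 ± 6.3 and 33.0 ± 2.76 CPM (0.28 ± 0.15, adjusted p = 0.22). Wild type replicate 1 was the highest of all 8 libraries for Dll4, at 36.4 CPM, and without it the log2 fold change was 0.46 (adjusted p = 0.016). This was the only call for Dll4 in 18 alternatives, with log2 fold changes from 0.21 to 0.46. Esm1, the secreted proteoglycan endocan, stood at 11.1 ± 1.55 and 13.7 ± 1.58 CPM (0.31 ± 0.16, adjusted p = 0.22). Aplnr, the apelin receptor gene, had −0.16 ± 0.09 (adjusted p = 0.25).

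Of tip-cell genes outside the 35, 13 could be tested, and 6 rose and 2 fell, against 9.06% and 9.85% of all tested loci. Adm (adrenomedullin) rose by 2.40 ± 0.31 from 2.71 ± 0.806 CPM, and the netrin receptor gene Unc5b rose by 0.61 ± 0.07. Cxcr4 and Ednrb fell by 0.55 ± 0.08 and 0.61 ± 0.08. Several of these genes are also expressed outside vessels, Ednrb in enteric neural crest, whose markers fell in 6 of 7 cases. The part of cells outside vessels in these values was not tested.

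Of the secreted, enzyme and adaptor genes, none of 3 passed the test. Nos3, endothelial nitric oxide synthase, had 0.28 ± 0.13 (adjusted p = 0.18). Its only call in 18 alternatives came without wild type replicate 1 (0.41, adjusted p = 0.043). Of the 4132 exonic bases of Nos3, 1040 are shared with the antisense gene Gm15587. The adaptor gene She had 0.21 ± 0.10 and Egfl7, a matrix-bound angiogenic factor, −0.02 ± 0.09.

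Genes of the ligands were measured in the same tissue. Of 13 VEGF, angiopoietin and apelin-family ligand and coreceptor genes tested, 4 rose and 3 fell, against 9.06% and 9.85% of all tested loci. Vegfd, whose product acts on VEGFR3, rose by 1.19 ± 0.22, from 12.4 ± 3.90 to 28.5 ± 5.32 CPM (SD, n = 4), and Ccbe1, needed to process VEGF-C, by 0.91 ± 0.14. Angpt2, the context-dependent antagonist of TIE2, rose by 1.17 ± 0.17. Angpt1, its agonist, fell by 0.44 ± 0.11, without a call in 6 of 18 alternatives, 4 of which left out 1 library. Pgf, the ligand of VEGFR1, fell by 0.56 ± 0.13, and the chemokine gene Cxcl12 rose by 0.21 ± 0.05. Vegfa stood at 171 ± 26.0 and 179 ± 21.1 CPM (0.07 ± 0.11, adjusted p = 0.73) and Vegfc at 27.5 ± 3.57 and 28.2 ± 3.15 CPM (0.03 ± 0.12, adjusted p = 0.9).

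Further vascular genes outside the 35 were tested by list. Of 20 other pan-endothelial genes tested, only the surface protein gene Tm4sf1 rose (0.90 ± 0.18) and 0 fell, with a median of 0.07. Of 22 endothelial transcription factor and signalling genes, 5 rose and 3 fell, with a median of 0.06: the factors Foxc2, Foxc1 (1.23 ± 0.23), Tcf15 (0.95 ± 0.23) and the Notch target Hey2 (0.72 ± 0.10) rose, as did the VE-cadherin partner phosphatase gene Ptprb (0.61 ± 0.11). Meox2, Calcrl and Heyl fell by 0.70 ± 0.12, 0.49 ± 0.08 and 0.36 ± 0.09, Heyl without a call when replicate 1 or replicate 4 of either genotype was left out. Of 11 arterial genes, 3 rose (Unc5b, Hey2 and Jag1), and of 5 venous genes, 3 rose (Nt5e, Flrt2 and Nr2f2). Nt5e rose by 3.10 ± 0.31, Flrt2 by 0.42 ± 0.06 and Nr2f2, also expressed in mesenchyme, by 0.40 ± 0.08. The part of cells outside veins in these values was not tested. Of 10 mural cell genes, known from the pericytes around vessels but measured here in whole tissue, 1 rose and 1 fell. Mcam rose by 0.20 ± 0.05 (no call when wild type replicate 2, wild type replicate 4 or YAP5SA replicate 3 was dropped). Anpep fell by 0.52 ± 0.16 (edgeR adjusted p = 0.0499), and its call was lost in 14 of 18 alternatives. How much other cells gave to the values of this list was not tested. Over these lists and those of ligand, tip-cell and lymphatic genes above, 92 different genes were tested. Of them 22 rose and 9 fell, against 9.06% and 9.85% of all tested loci. The lists themselves carry no test. With the replicate number as a block, 2 other pan-endothelial genes rose, and 2 lymphatic and 3 tip-cell genes outside the 35, 1 arterial gene and 2 mural cell genes fell.

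Markers of some other cell types in the same tissue also changed, where 9.06% of all tested loci rose and 9.85% fell. All 9 gastric epithelium markers tested fell (8 when any of wild type replicates 1 to 3 or of YAP5SA replicates 3 and 4 was dropped), from 812 to 992 CPM summed in wild type to 459 to 636 CPM in YAP5SA, and 6 of 7 enteric neuron and neural crest markers fell, from 510 to 591 CPM to 289 to 340 CPM. The liver list had 2 rises (Alb and Afp) and 1 fall (Hnf4a) among 5 (0 rises with the replicate block), the megakaryocyte list 1 rise (Pf4; lost without any library but YAP5SA replicate 2) among 3, the mesothelium list 2 falls (Upk3b and Krt19) among 6 and the pancreas list no call among 5. Fragments are shared out of a fixed depth, so the share of each other cell type bears on every CPM. The part of these shares in the endothelial values was not tested.

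Fragment counts grew less than depth at densely covered loci and more than depth at sparsely covered ones. Among the 35 genes, coverage ran from 0.0199 to 0.264 fragments per exonic base. Over 4668 loci of the middle range, 0.0470 to 0.135, the logarithm of the count grew by 1.03 for each unit of the logarithm of depth, compared within a genotype. For the 9 genes above that range, Kdr, Pecam1 and Cdh5 among them, this growth was 0.675 over 2753 loci of like coverage. Every YAP5SA library was deeper than every wild type library, so the fold changes of these 9 genes may be shifted downward. For the 9 genes below that range, among them Flt1, Flt4, Esm1, Eltd1 and Prox1, the value was 1.56. Their fold changes may be shifted upward. The part of depth in the fold changes of single genes was not tested.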

How the data were processed

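RNA of 8 mouse stomach samples was sequenced. Reads were aligned to mm10 and quantified by the authors with TopHat2 2.0.9, Cufflinks 2.2.1 and Cuffdiff, per the submitters' processing notes; strand use and duplicate handling are not given in the sources used here. The deposited table gives, per the file headers, estimated counts (raw fragments; 10.59% to 11.02% of values per library not whole) for each locus and library. The authors also computed FPKM for each library with Cuffdiff, per the file headers and the submitters' processing notes. Its replicates 0 to 3 were read as samples 1 to 4.

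The 3582 loci without a gene name (1.85% to 1.969% of fragments) were left out. Counts were rounded, filtered with filterByExpr (minimum count 10, total 15), scaled by TMM and tested with edgeR 4.0.16 (quasi-likelihood, R 4.3.3; genotype only, Benjamini-Hochberg over 14574 loci); CPM use TMM-scaled library sizes. Errors after ± are standard errors for log2 fold changes and SD over 4 libraries otherwise. Alternatives were DESeq2 1.42.0, limma 3.58.1 (voom, and log2(FPKM + 0.1 or 1)), other scalings and filters, a replicate block and each library left out. Same-numbered libraries correlated at 0.22, 0.143, 0.141 and 0.206 after centring by genotype. The replicate numbers, shared in the titles, were taken as pairs only in the alternative with a replicate block. The main test did not use them, so its p-values are unpaired. The titles do not say what libraries of equal number share. The edgeR and DESeq2 steps were tested on simulated data. All members are named; of other lists, up to 4 genes of smallest p, or every called gene where a count of 5 or fewer needs it. The members and lists were chosen with earlier results of these data known.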

Additional observations from a re-analysis of the deposited data

Results flagged for a closer look

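In 4 of 70 groups of 4 libraries, 1 library stood apart from the other 3 by more than the critical value of Dixon's test; chance flags about 1 in 20 groups. Kdr in YAP5SA replicate 4 stood at 190 CPM beside 222, 217 and 221 CPM. Sox7 in wild type replicate 3 stood at 29.1 CPM beside 40.5, 41.2 and 39.6 CPM. Robo4 and Icam2 were both high in wild type replicate 1, at 50.8 CPM beside 42.2, 40.5 and 42.2 CPM and at 35.3 CPM beside 29.8, 30.4 and 30.2 CPM.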

How the results depend on the processing

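Kdr, Lyl1 and Ecscr were called in all 18 alternatives (log2 fold changes 0.58 to 0.69, 0.97 to 1.27 and 0.46 to 0.56), Gpr116 in 16 and Flt4 in 11. Leaving out 1 library at a time gave 4 to 8 members higher (8 without wild type replicate 1, 7 without wild type replicate 2) and 0 to 1 lower; both FPKM fits gave 0 lower. With the replicate number as a block, 5 members were higher, Eng being added, and 1 lower; the pairing changed no other call among the members. Over the 35 genes and 18 alternatives, 570 values kept their direction and side of the threshold, 13 gained and 9 lost a call, and 38 changed sign. The sign changes were all in members near 0 and without a call. With 1 library left out, Pecam1 ranged from -0.07 to 0.04, Tie1 from -0.07 to 0.06, Tek from -0.14 to 0.07, Emcn from -0.04 to 0.13, Esam from -0.07 to 0.05, Cldn5 from -0.15 to 0.03, Sox18 from -0.13 to 0.12, Egfl7 from -0.07 to 0.07, Plvap from -0.12 to 0.05, Clec14a from -0.34 to 0.03 and Prox1 from -0.17 to 0.36. Tie1 was at 0.00 without a filter and in both FPKM fits, which put Cldn5 at 0.05, Sox18 at 0.00 and Egfl7 at 0.01. The cause was not tested. With 4 libraries per genotype and 60 or more fragments per value, a gene's fold change could lie anywhere within its 95% interval.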
